A study of Mus musculus with 25 samples.

Results

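The sperm tail and spermiogenesis genes described here are 37 genes, chosen by symbol, among the 24358 genes of the table. They encode proteins of the outer dense fibres (4 genes), the fibrous sheath (7), the mitochondrial capsule (1), the tektin family (5) and the axoneme (10), together with testis-specific serine kinases (5) and other factors of spermiogenesis (5). All 37 had a valid estimate in every condition. Sperm were taken from the cauda epididymis of mice aged 14 weeks, and their RNA was sequenced by all-RNA-seq, which does not select polyadenylated RNA. C57.CTL.F1 and FVB.CTL.F1 were C57BL/6J and FVB/N males whose mothers received corn oil, the vehicle. C57.D300.F1 and FVB.D300.F1 were males whose mothers received di-(2-ethylhexyl) phthalate (DEHP), a plasticizer, by mouth at 300 mg/kg/day from embryonic day 9 to 19. C57.D300.F2 were sons of the C57BL/6J DEHP lineage, obtained by mating its males with unexposed females, and there was no F2 group of the vehicle lineage. Each condition had 5 libraries, and the table gives 1 estimated fragment count per gene for the condition, so no spread between animals and no test was available. The 10 libraries of both C57BL/6J F1 conditions were re-analysed from earlier work and the 15 others were new. Differences between these sets of libraries cannot be told apart from generation in C57BL/6J, nor from strain where FVB/N was set against the F1 conditions of C57BL/6J.

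The mouse sperm tail is built during spermiogenesis, the haploid phase in which the round spermatid elongates. Its core, the axoneme, carries dynein arms, radial spokes and a central pair of microtubules, and it is surrounded by outer dense fibres along the midpiece and principal piece. Mitochondria wrap the midpiece and the fibrous sheath encases the principal piece. The genes for these parts are transcribed in spermatids, and many of their mRNAs are stored before translation. Transcription stops as the nucleus condenses, so the RNA found in epididymal sperm is held to be a remnant of earlier stages. Axonemal genes are also used by motile cilia, whereas the fibrous sheath, the outer dense fibres and the mitochondrial capsule are structures of the sperm tail.

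RefSeq promoter windows on GRCm38.p6, from 250 bases before to 50 after each start, were found for 33 of the 37 genes, in 44 windows. No window held the cAMP response element TGACGTCA, against 1.79% of all 32851 windows, and none held the TATA box letters TATAAA, against 13.6%. The half-site of the X-box, the motif read by RFX factors at genes of cilia and flagella, was searched on both strands with the letters GTTGCCA, with the variant spelled GTTGCTA, with another variant spelled GTTACCA and with a further variant spelled GTTACTA. It was present in 12 of the 44 windows (27.3%), from 11 genes, and in 11.5% of all windows. The windows of 4 genes are given as examples. Smcp had the highest count, Akap4 was among the genes that differed most between the strains, Hydin is shared with motile cilia, and Rsph9 had nearly the same count in every condition. Capitals mark matches to the searched spellings on either strand, which were absent from the Smcp and Rsph9 windows. The searched spellings were also absent from the windows of Tekt4 and of Spata18, the gene with the largest strain difference, which are not shown. Windows without a match may hold other forms of the motif. These matches describe letters in the windows and were not tested for binding.
Smcp, chr3:92589024-92589323, minus strand: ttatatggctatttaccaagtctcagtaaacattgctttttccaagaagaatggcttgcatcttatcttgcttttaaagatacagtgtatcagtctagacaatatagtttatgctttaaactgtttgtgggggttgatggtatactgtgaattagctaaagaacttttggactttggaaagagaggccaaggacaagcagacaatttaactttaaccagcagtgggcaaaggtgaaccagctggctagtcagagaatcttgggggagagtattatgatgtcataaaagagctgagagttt
Akap4, upstream start, chrX:7067265-7067564, plus strand: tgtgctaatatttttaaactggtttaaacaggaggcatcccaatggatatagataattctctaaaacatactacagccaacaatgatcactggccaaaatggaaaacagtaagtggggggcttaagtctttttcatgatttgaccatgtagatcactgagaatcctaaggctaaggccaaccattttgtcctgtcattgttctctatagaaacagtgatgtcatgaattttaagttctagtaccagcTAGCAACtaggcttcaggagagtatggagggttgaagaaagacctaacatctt
Akap4, downstream start, chrX:7067960-7068259, plus strand: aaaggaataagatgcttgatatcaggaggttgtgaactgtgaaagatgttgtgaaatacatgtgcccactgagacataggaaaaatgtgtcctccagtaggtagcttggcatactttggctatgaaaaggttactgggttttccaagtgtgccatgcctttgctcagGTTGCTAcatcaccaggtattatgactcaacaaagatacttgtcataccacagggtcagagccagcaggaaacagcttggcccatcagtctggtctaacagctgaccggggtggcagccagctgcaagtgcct
Hydin, chr8:110266727-110267026, plus strand: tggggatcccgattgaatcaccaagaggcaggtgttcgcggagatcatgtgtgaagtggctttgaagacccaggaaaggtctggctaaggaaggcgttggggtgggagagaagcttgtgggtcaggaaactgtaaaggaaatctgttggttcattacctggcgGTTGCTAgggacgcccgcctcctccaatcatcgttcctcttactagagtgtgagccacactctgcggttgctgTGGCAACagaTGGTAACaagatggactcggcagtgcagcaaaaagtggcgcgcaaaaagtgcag
Rsph9, chr17:46144151-46144450, minus strand: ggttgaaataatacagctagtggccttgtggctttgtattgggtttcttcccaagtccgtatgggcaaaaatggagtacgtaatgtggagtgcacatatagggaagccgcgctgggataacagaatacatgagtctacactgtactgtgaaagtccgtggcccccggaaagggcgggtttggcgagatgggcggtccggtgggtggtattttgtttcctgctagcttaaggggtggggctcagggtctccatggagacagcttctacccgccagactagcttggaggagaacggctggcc

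Shares of counts are taken of all valid estimates in a condition, and 35 to 50 genes failed per condition. The epididymal gene Crisp1 was in the total for C57.CTL.F1 (108274 counts) and FVB.D300.F1 (219328) and missing from the others. The shares thus rest on totals that do not cover the same genes. The 37 genes together held 1.05% of all counts for C57.CTL.F1, 1.05% for C57.D300.F1, 0.461% for C57.D300.F2, 0.110% for FVB.CTL.F1 and 0.115% for FVB.D300.F1. The RNA of the tail genes thus fell into 3 levels, with both F1 conditions of C57BL/6J above C57.D300.F2 and C57.D300.F2 above both conditions of FVB/N. This order was found in 34 of the 37 genes (91.9%) and in 3863 of the 17701 genes with at least 10 counts in 1 condition (21.8%). Most of the counts came from Smcp, Odf1, Oaz3 and Odf2, which made up 81.7% of the tail counts for C57.CTL.F1, 75.1% for C57.D300.F2 and 68.7% for FVB.D300.F1. Smcp ranked 18 among all genes for C57.CTL.F1, 13 for C57.D300.F1, 58 for C57.D300.F2, 595 for FVB.CTL.F1 and 610 for FVB.D300.F1. Odf1 ranked 35, 28, 80, 347 and 311 in the same order of conditions, and took the place of Smcp as the leading tail gene in FVB/N. The counts of both genes, each taken with its own modelled error given below, had overlapping ranges. In such bulk libraries, fewer cells with tail RNA, less of it per cell and a larger amount of other RNA cannot be told apart.

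**Figure D1:**
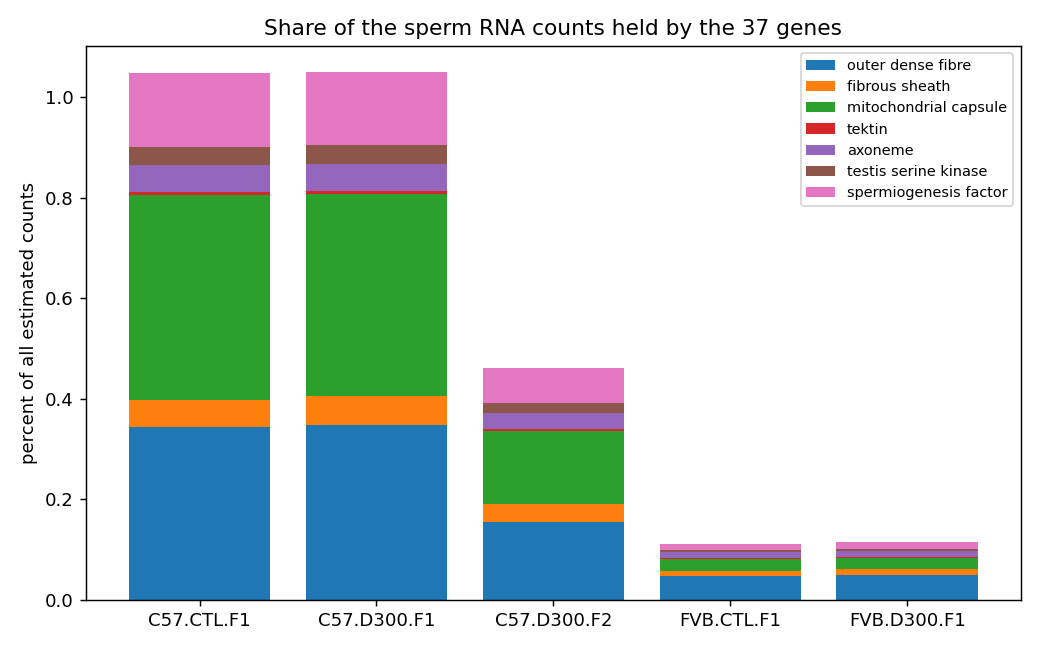
Share of all estimated counts (percent, bars stacked by structure) held by the 37 sperm tail and spermiogenesis genes in each condition. The bars stand at 1.05% in both C57BL/6J F1 conditions, at 0.461% in C57.D300.F2 and at 0.110% and 0.115% in FVB/N, and most of each bar is outer dense fibre, mitochondrial capsule and spermiogenesis factor RNA.

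The conditions held between 6921688 and 8602900 counts in all, and between 15883 and 16612 genes with at least 10 counts. At least 36 of the 37 tail genes reached 10 counts in every condition. The only error available is the variance that the authors' software modelled for each count. Its square root, the model SD, had a median of 27.1% to 31.7% of the count over the tail genes, and 27.5% to 28.0% over all genes with at least 10 counts. Ratios are given as log2 of the counts with 1 added, a gene was counted as higher or lower from 1 log2 unit, that is 2-fold, and differences were also set against the model SD. Folds are ratios of the counts themselves. The share of all genes that met the same limit is given beside the counts of tail genes.

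Smcp encodes the cysteine-rich protein of the mitochondrial capsule in the midpiece and lies at chr3:92583867-92588997 on the minus strand (GRCm38). Its counts were 35149 ± 29703 (model SD) for C57.CTL.F1, 31101 ± 20432 for C57.D300.F1, 10099 ± 4329 for C57.D300.F2, 1799 ± 537 for FVB.CTL.F1 and 1784 ± 539 for FVB.D300.F1. The counts were high in both C57BL/6J F1 conditions, intermediate in C57.D300.F2 and nearly the same in both conditions of FVB/N. FVB.CTL.F1 was 19.5-fold below C57.CTL.F1 (log2 -4.29) and 5.61-fold below C57.D300.F2 (log2 -2.49). The log2 ratio of C57.D300.F2 was -1.80 to C57.CTL.F1 and -1.62 to C57.D300.F1, the largest differences of any tail gene in both comparisons. The model SD of Smcp in C57.CTL.F1 was 84.5% of the count, the highest of all tail genes in that condition, and the difference between C57.D300.F2 and C57.CTL.F1 did not exceed the model SD.

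Of the outer dense fibre genes, Odf1 and Odf2 encode main proteins of the fibres and were abundant, while Odf3 and Odf4 were near the lower end of the range. Odf1 (chr15:38219203-38226735, plus strand) had 21227 ± 13611 (model SD) counts for C57.CTL.F1, 20238 ± 13909 for C57.D300.F1, 7981 ± 3109 for C57.D300.F2, 2589 ± 772 for FVB.CTL.F1 and 2944 ± 1008 for FVB.D300.F1. Odf2 (chr2:29889221-29931746, plus strand), whose protein also has a role at centrioles of other cells, had 8150.3 ± 3535, 6647 ± 2665, 2709.6 ± 802, 1001 ± 249.9 and 1151 ± 302 counts in the same order. The log2 ratio of FVB.CTL.F1 to C57.CTL.F1 was -3.03 for Odf1 and -3.02 for Odf2, so both differed about equally between the strains. Odf3 had 53.1, 44.7, 30.8, 12.1 and 9.91 counts. Odf4 had 49.9, 45.7, 32.1, 10.7 and 18.1 counts. Both were thus lowest in FVB/N as well, with log2 ratios of FVB.CTL.F1 to C57.CTL.F1 of -2.04 and -2.13.

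The fibrous sheath is a scaffold for signalling and glycolytic enzymes, in which AKAP3 and AKAP4 anchor protein kinase A. Akap4 (chrX:7067519-7078609, plus strand) had 2032 ± 604 (model SD) counts for C57.CTL.F1, 2103 ± 588 for C57.D300.F1, 1010.0 ± 252 for C57.D300.F2, 179 ± 44.9 for FVB.CTL.F1 and 286 ± 70.2 for FVB.D300.F1. Akap3 had 207, 199, 153, 28.8 and 50.4 counts. Akap4 was 11.4-fold and Akap3 7.19-fold lower in FVB.CTL.F1 relative to C57.CTL.F1, and these genes also had the largest ratios of DEHP to vehicle in FVB/N among the fibrous sheath genes. Fscb, a partner of CABYR and a gene with 1 exon, had 624, 593, 273, 46.8 and 72.9 counts, and its log2 ratio of FVB.CTL.F1 to C57.CTL.F1 was -3.71. Spa17, which carries a domain like that of the kinase A regulatory subunit, had 681, 541, 266, 118 and 156 counts. Ropn1l, an AKAP-binding protein, had 732, 594, 393, 162 and 183 counts. Spa17 and Ropn1l differed less between the strains than Fscb, with log2 ratios of -2.52 and -2.17. Ropn1, a relative of Ropn1l, had 55.2, 53.3, 40.7, 13.1 and 12.95 counts. Cabyr, a calcium-binding protein of the sheath, had 377, 367, 232, 122 and 129 counts and the smallest strain difference of the 7 genes (log2 -1.62).

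Tektins are filament proteins of the doublet microtubules. Tekt1 had 89.4 counts for C57.CTL.F1, 85.9 for C57.D300.F1, 50.4 for C57.D300.F2, 20.5 for FVB.CTL.F1 and 20.9 for FVB.D300.F1. Tekt2 had 152, 130.3, 101, 30.8 and 30.6 counts in the same order. Tekt3 had 88.6, 80.1, 43.9, 11.4 and 12.4 counts. These 3 genes were between 4.36-fold and 7.76-fold lower in FVB.CTL.F1 relative to C57.CTL.F1, although the model SD of Tekt3 reached 160.3% of its count in FVB.CTL.F1. Tekt5 had 30.2, 30.4, 23.7, 14.8 and 16.6 counts, and its log2 ratio of -0.98 lay just under the limit. Tekt4 (chr17:25454615-25476602, plus strand) had 152 ± 39.9 (model SD), 136 ± 34.7, 85.9 ± 23.7, 100.1 ± 26.9 and 115 ± 31.4 counts. Tekt4 did not follow the order of the other tektins, since both FVB/N conditions lay above C57.D300.F2, by less than the model SD for FVB.CTL.F1 (log2 0.22).

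The axonemal genes encode parts of the central apparatus, the radial spokes and the dynein arms. Of the central apparatus genes, Spag16 (chr1:69826970-70725132, plus strand) was the most abundant, with 1621 ± 457 (model SD) counts for C57.CTL.F1, 1561 ± 431 for C57.D300.F1, 647 ± 155 for C57.D300.F2, 160.0 ± 40.3 for FVB.CTL.F1 and 172 ± 45.4 for FVB.D300.F1. It also had the largest strain difference of the axonemal genes (log2 -3.33). Spag17 had 617, 566, 264, 137 and 149 counts. Hydin, whose product forms a projection of the central pair, had 659, 620.0, 349, 145 and 169 counts. Spag17 and Hydin showed almost the same strain difference, with log2 ratios of -2.16 and -2.17. Spag6 had 180.4, 151, 77.0, 27.7 and 40.6 counts. Its paralog Spag6l, with 79.1, 76.9, 42.9, 15.8 and 19.97 counts, showed the same order, but reads may have been divided between these similar genes. Spef2 had 91.8, 104, 57.6, 32.8 and 39.0 counts.

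Of the radial spoke head genes, Rsph1 had 252, 253, 154, 68.5 and 68.3 counts. Rsph9 (chr17:46122035-46144216, minus strand) had 89.9 ± 24.8 (model SD), 70.2 ± 20.5, 66.5 ± 19.4, 78.5 ± 22.4 and 72.7 ± 21.0 counts. The conditions thus overlapped within the model SD for Rsph9, whose log2 ratio of FVB.CTL.F1 to C57.CTL.F1 (-0.19) was the smallest in size of the 37 genes, whereas that of Rsph1 was -1.87. Dnah17, a dynein heavy chain of the outer arm in sperm, had 744, 632, 379, 172 and 208 counts. Dnah1, a heavy chain of an inner arm, had 213, 218, 146, 62.8 and 64.8 counts. Both heavy chains followed the 3 levels, with log2 strain ratios of -2.11 and -1.75. Dnali1, a light intermediate chain, had 66.7, 45.8, 28.6, 10.4 and 13.8 counts, with a model SD between 58.5% and 147% of the count.

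The testis-specific serine kinases are made in spermatids. Tssk6 (chr8:69902184-69903518, plus strand) had 2051 ± 731 (model SD) counts for C57.CTL.F1, 2004 ± 684 for C57.D300.F1, 1013 ± 312 for C57.D300.F2, 159 ± 86.4 for FVB.CTL.F1 and 202 ± 105 for FVB.D300.F1. Tssk2 had 718, 507, 216, 46.0 and 55.3 counts. Tssk3 had 253, 241, 114, 15.4 and 20.6 counts. These 3 kinases lay close together in the strain comparison, with log2 ratios of -3.68, -3.94 and -3.95, and the median of the 5 kinases (-3.68) was below that of the axonemal genes (-2.14). Tssk1, which lies beside Tssk2 on chromosome 16, had 79.6, 66.6, 52.2, 19.7 and 20.9 counts and a log2 ratio of -1.96. Tssk4 (chr14:55650184-55652539, plus strand) had 34.9 ± 11.9 (model SD), 25.9 ± 9.52, 29.3 ± 10.2, 29.5 ± 10.3 and 26.0 ± 9.63 counts, and in none of the comparisons did it differ by more than the model SD.

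Among the other spermiogenesis factors, Oaz3 and Spata18 had the largest strain differences of the whole group beside Smcp. Oaz3, an ornithine decarboxylase antizyme of haploid germ cells (chr3:94432414-94443915, minus strand), had 9117 ± 4330.0 (model SD) counts for C57.CTL.F1, 8121 ± 3273 for C57.D300.F1, 3179 ± 977 for C57.D300.F2, 505 ± 126 for FVB.CTL.F1 and 664 ± 169.7 for FVB.D300.F1. Spata18, which has a role in mitochondrial quality control (chr5:73651379-73679512, plus strand), had 1665 ± 490.1 (model SD), 1499 ± 396, 767 ± 186, 65.8 ± 19.7 and 102 ± 28.5 counts. FVB.CTL.F1 was 25.3-fold below C57.CTL.F1 for Spata18 (log2 -4.64) and 18.1-fold below it for Oaz3 (log2 -4.17). Spata6, needed for the connecting piece between head and tail, had 1013, 915, 496, 209.6 and 259 counts. Spem1, which acts in the removal of spermatid cytoplasm, had 589, 453, 203, 99.6 and 106 counts. Meig1, a manchette protein, had 219.6, 269, 168, 50.1 and 77.5 counts. Their strain differences were smaller than those of Oaz3 and Spata18, with log2 ratios of -2.27, -2.55 and -2.11.

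**Figure D2:**
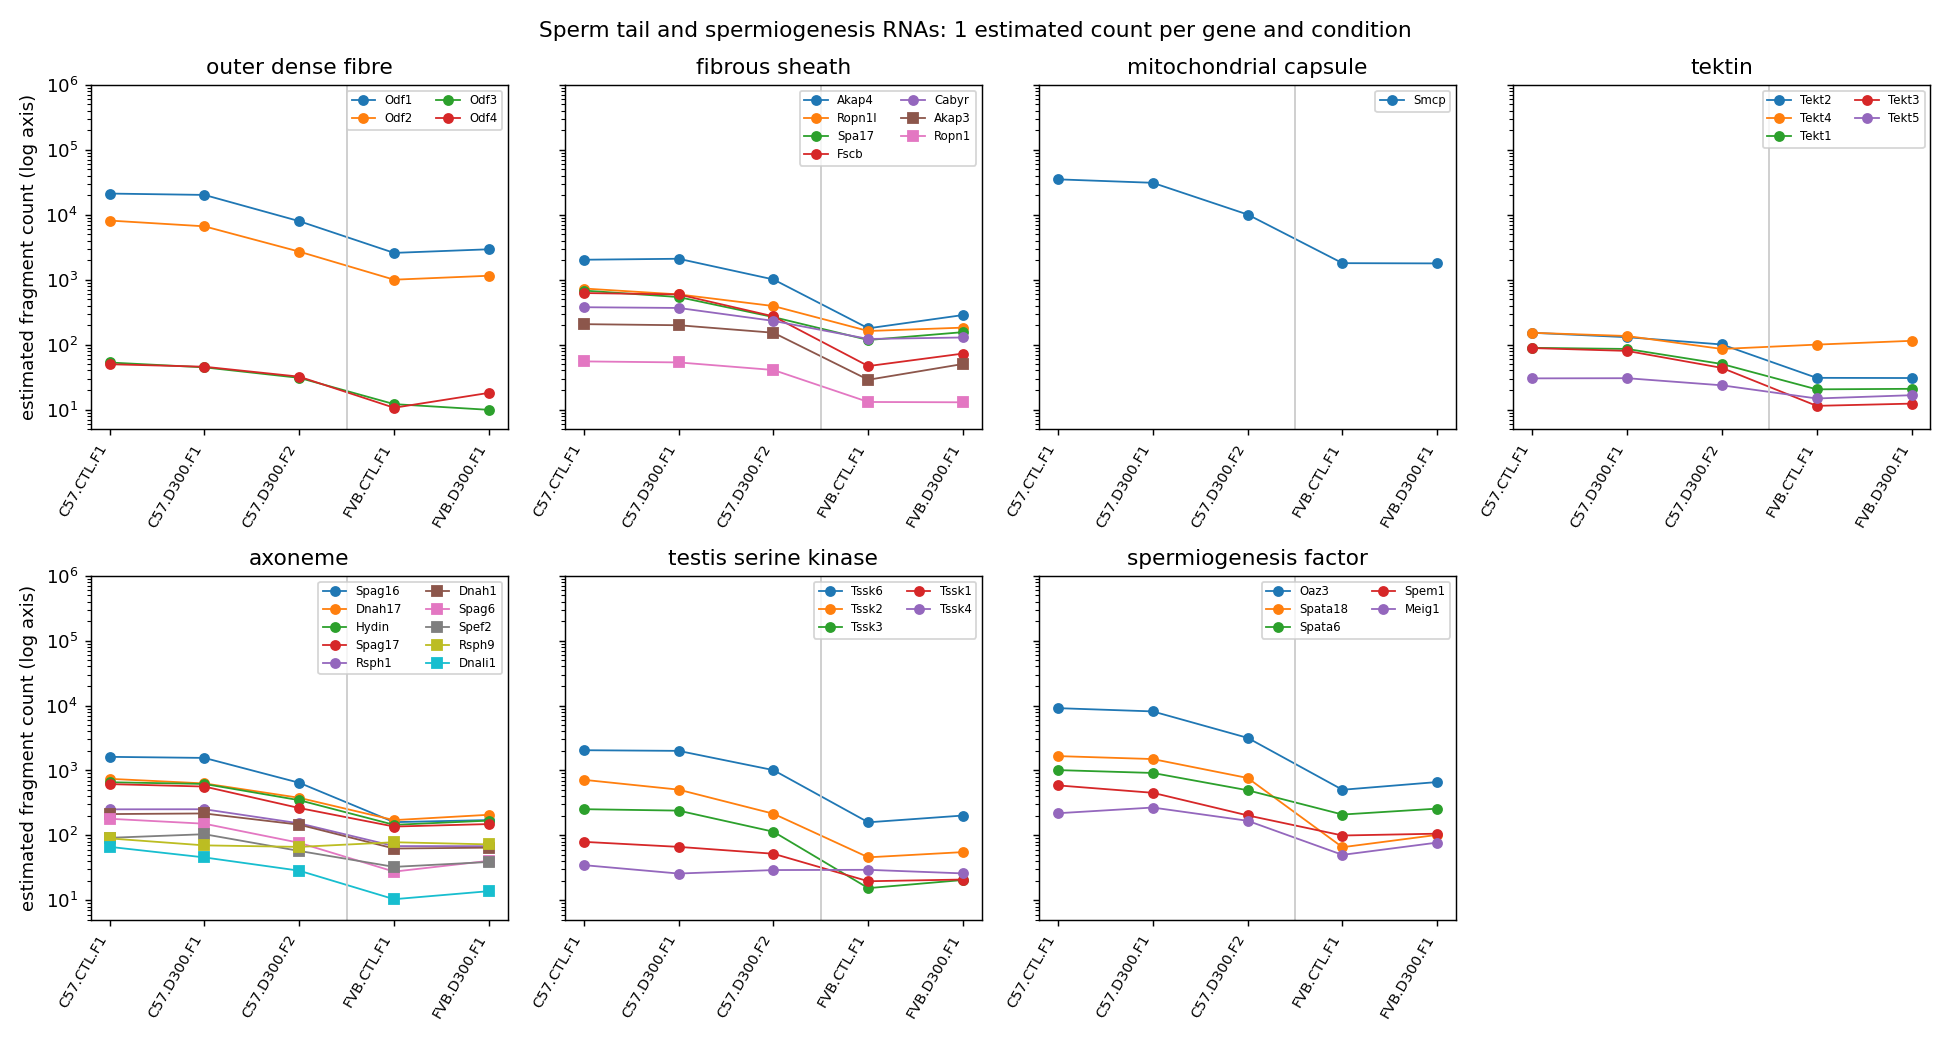
Estimated fragment count of each of the 37 genes (log axis) in the 5 conditions, with 1 panel per structure, 1 point per gene and condition joined by gene, and a grey line between C57BL/6J and FVB/N. The points of 34 genes step down from the C57BL/6J F1 conditions to C57.D300.F2 and again to FVB/N, whereas Tekt4, Rsph9 and Tssk4 do not.

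DEHP exposure in the first generation was compared with vehicle within each strain. In C57BL/6J, no tail gene was higher or lower by 1 log2 unit, against 1.09% and 1.15% of all genes, and none differed by more than the model SD, against 6.57% of all genes. The log2 ratios ran from -0.53 (Dnali1) to 0.29 (Meig1) with a median of -0.14, against -0.01 over all genes, and 31 of the 37 were below 0, against 51.7% of all genes. The median sat at 0.01 once the conditions were scaled to equal totals, where the median of all genes was 0.14. In FVB/N, no tail gene was higher or lower by 1 log2 unit, against 2.16% and 0.619% of all genes. The log2 ratios ran from -0.27 (Odf3) to 0.79 (Akap3) with a median of 0.19, against 0.00 over all genes, and 30 of the 37 were above 0, against 50.6% of all genes. With equal totals this median was 0.06 and that of all genes -0.12.

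Akap3, Akap4, Fscb and Spata18 were higher in FVB.D300.F1 relative to FVB.CTL.F1 by more than the model SD, with log2 ratios of 0.79, 0.68, 0.63 and 0.62. They were 4 of 37 genes (10.8%), and 5.65% of all genes exceeded the model SD in this comparison. The fibrous sheath and the spermiogenesis factors had the highest medians of the structures in this comparison (0.40 and 0.39), and Smcp the lowest value (-0.01). The difference between both log2 ratios, FVB/N minus C57BL/6J, was above 0 for 35 of the 37 genes and 53.3% of all genes, with a median of 0.34 against 0.03 over all genes. It ranged from -0.02 (Odf3) to 0.91 (Dnali1) and reached 1 log2 unit in no tail gene, against 4.45% of all genes that were higher and 2.92% that were lower. With equal totals its median was 0.07 and that of all genes -0.25. This difference exceeded the model SD for 1 tail gene, Akap3 (0.84), and for 6.97% of all genes.

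The second generation of the DEHP lineage in C57BL/6J was set against both F1 conditions, which share neither the generation nor the set of libraries with it. Against C57.CTL.F1, 17 of the 37 tail genes were lower by 1 log2 unit, against 10.2% of all genes, and none was higher, against 4.1%. All 37 ratios were below 0, against 53.2% of all genes, and ran from -1.80 (Smcp) to -0.25 (Tssk4), with a median of -0.97 against -0.04 over all genes. The model SD was exceeded by 25 tail genes and by 26.9% of all genes. Of the 17, Smcp, Odf1 and Dnali1 did not exceed it. Against C57.D300.F1, 12 were lower (8.35% of all genes) and none was higher (2.69%), with a median of -0.83 against -0.05. The 17 genes were Smcp, Odf1, Odf2, Akap4, Spa17, Fscb, Spag6, Spag16, Spag17, Dnali1, Tssk2, Tssk3, Tssk6, Spata6, Spata18, Spem1 and Oaz3. No tektin was among them, though Tekt3 (log2 -0.998) lay just under the limit, and the median of the 5 tektins was -0.81. Scaling to equal totals, which moved the median of all genes to 0.27 and 0.11, left 8 genes below the limit against C57.CTL.F1 and 6 against C57.D300.F1. With that scaling, 1114 of all 17114 genes and 1101 of all 17133 genes were lower in the same comparisons. Both comparisons share C57.D300.F2.

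FVB.CTL.F1 was set against C57.CTL.F1 to compare the strains without DEHP. In FVB.CTL.F1, 33 of the 37 tail genes were lower by 1 log2 unit, against 18.8% of all genes, and none was higher, against 7.5%. The median log2 ratio was -2.27 against -0.03 over all genes, and all 37 ratios were below 0, as were 51.8% of all. By at least 2 log2 units, 27 tail genes were lower, and 1518 of all 17086 genes. The model SD was exceeded by 35 tail genes, all but Rsph9 and Tssk4, and by 41.2% of all genes. The genes within the limit were Tekt4, Tekt5, Rsph9 and Tssk4. FVB.CTL.F1 and C57.D300.F2 both came from the new libraries. Against C57.D300.F2, 30 tail genes were lower in FVB.CTL.F1 (11.6% of all genes) and none was higher (4.2%), with a median of -1.38 against 0.00, from -3.52 (Spata18) to 0.24 (Rsph9). Within the new libraries, 34 of the 37 ratios were below 0, against 50.4% of all genes, in conditions that also differed in exposure and generation.

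**Figure D3:**
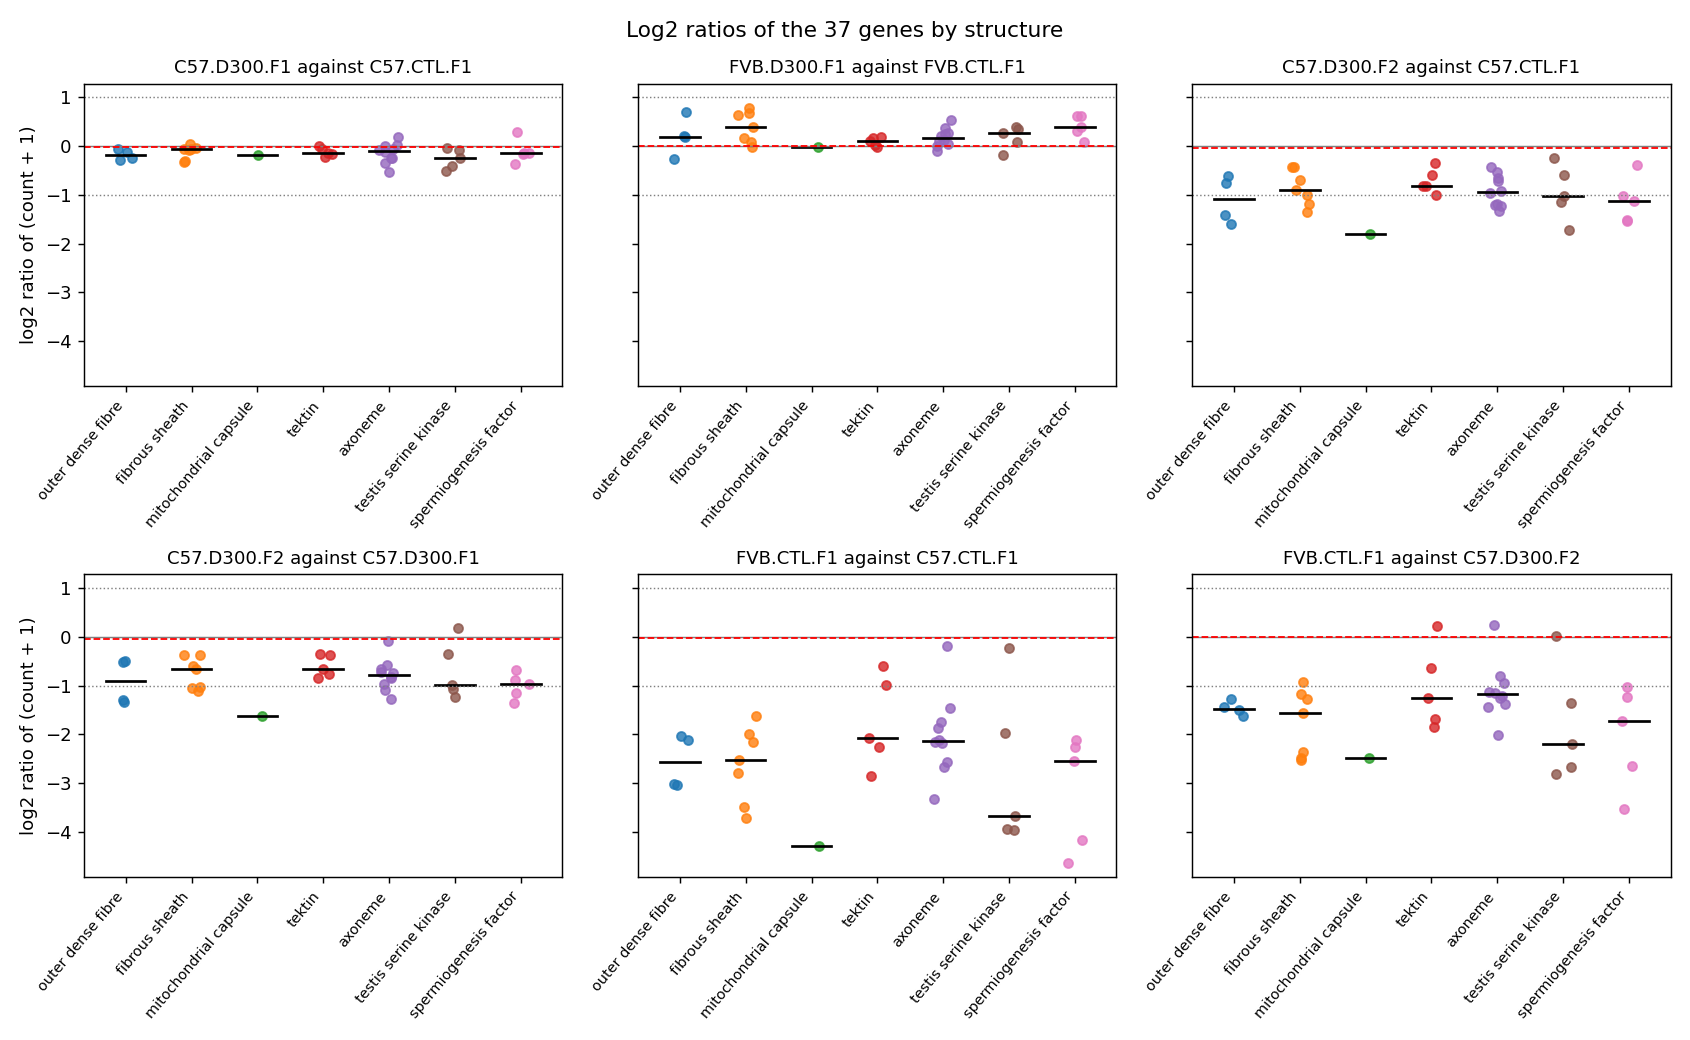
Log2 ratio of (count + 1) of each of the 37 genes in 6 comparisons, grouped by structure, with 1 point per gene, a black bar at the median of the structure, a red dashed line at the median of all genes and dotted lines at 1 log2 unit. The points lie around 0 for DEHP against vehicle in both strains and below 0 for almost all genes in the other 4 comparisons, down to -4.64 (Spata18).

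Genes with more RNA in C57BL/6J sperm had on the whole the lower log2 ratios. Across the 37 genes, the count in C57.D300.F1 and the log2 ratio of FVB.CTL.F1 to C57.CTL.F1, which rest on different conditions, had a Spearman correlation of -0.66, against -0.40 across 93 other tail genes and -0.08 across 16696 genes of the table. The count in C57.CTL.F1 and the log2 ratio of C57.D300.F2 to C57.D300.F1 had a correlation of -0.79, against -0.49 across the other tail genes and -0.16 across all genes. For the 37 genes, both C57BL/6J F1 conditions lay close together, with log2 ratios from -0.53 to 0.29. Each level thus stood near the denominator of its ratio, which favours a negative correlation. The ratio of FVB.CTL.F1 to C57.CTL.F1 and that of C57.D300.F2 to C57.D300.F1, which have no condition in common, had a correlation of 0.77 across the 37 genes, but also of 0.75 across the other tail genes and 0.72 across all genes. Both ratios set a new set of libraries against a re-analysed one. Genes are not independent replicates, the points share their libraries, and these values are descriptions. Per kilobase of exon, the levels in C57.CTL.F1 ran from 9.26 (Spef2) to 38499 (Smcp) counts, and the correlation of the level per kilobase in C57.D300.F1 with the strain ratio was -0.72, whereas that of exon length with the ratio was 0.09.

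**Figure D4:**
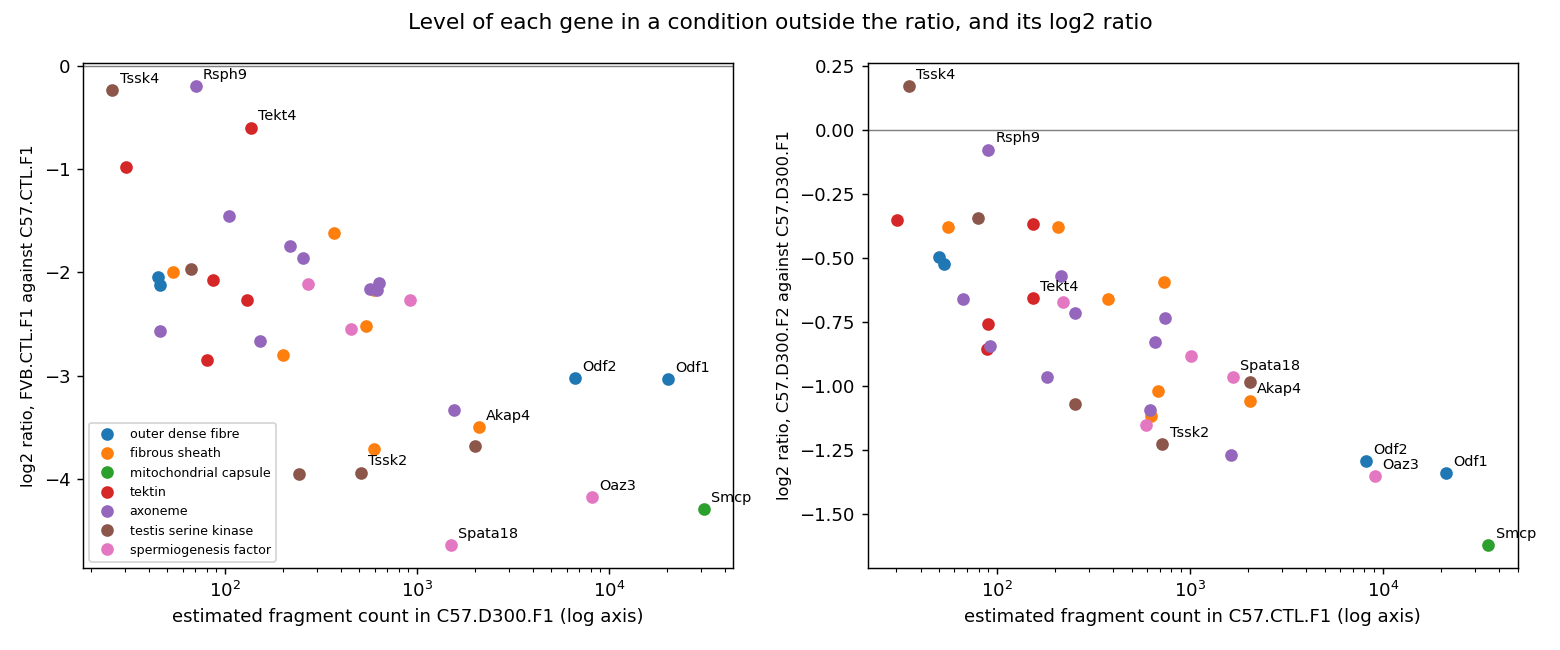
Log2 ratio of each of the 37 genes against its estimated count (log axis) in a condition that the ratio does not use, for FVB.CTL.F1 against C57.CTL.F1 (left) and C57.D300.F2 against C57.D300.F1 (right), with 1 point per gene coloured by structure. That condition lay close in level to the denominator of the ratio, which favours a negative correlation. Tssk4 and Rsph9 lie near 0, Spata18 (-4.64) lies lowest on the left and Smcp (-1.62) on the right, and the Spearman correlations are -0.66 and -0.79.

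A list of 113 other genes of the tail and of tail formation, 97 of them in the table, was examined beside the 37 genes. For FVB.CTL.F1 relative to C57.CTL.F1, 68 of 93 measured genes were lower by 1 log2 unit and 1 was higher (median -1.85). Within C57.D300.F2, 31 of 94 were lower and 1 was higher relative to C57.CTL.F1 (median -0.74), and 22 were lower and 1 was higher relative to C57.D300.F1 (median -0.64). For FVB.CTL.F1 relative to C57.D300.F2, 49 of 94 were lower and none was higher (median -1.05). DEHP against vehicle gave medians of -0.16 in C57BL/6J, with no gene past the limit, and 0.25 in FVB/N, with 3 higher. The difference between both ratios reached the limit in 10 genes, all higher in FVB/N, with a median of 0.41. The 3 levels of the conditions were found in 68 of 94 of these genes (72.3%), against 91.9% of the 37.

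Of these genes, only those that reached 100 counts in a compared condition are named here. Tcp11, Spata3 and Armc4 had the largest strain differences among them. Tcp11, a sperm tail protein, had 9753 counts for C57.CTL.F1, 6412 for C57.D300.F1, 2799 for C57.D300.F2, 463 for FVB.CTL.F1 and 576 for FVB.D300.F1 (log2 -4.39 between the vehicle conditions). Armc4, needed to dock outer dynein arms, had 217, 184, 73.7, 16.4 and 16.1 counts (log2 -3.65). Spata3 had 458, 269, 116, 34.1 and 46.5 counts (log2 -3.71), and it was lowest of these genes for C57.D300.F2 relative to C57.CTL.F1, with a log2 ratio of -1.97. Spata20 followed Tcp11 in that comparison (log2 -1.62 after -1.80). Against C57.D300.F1, Ak7 (an adenylate kinase), Armc4 and Armc3 were lowest in C57.D300.F2, with -1.39, -1.31 and -1.22. Gapdhs, the glycolytic enzyme bound to the fibrous sheath, and the inner arm heavy chain Dnah7a followed Tcp11 (-2.59) for FVB.CTL.F1 relative to C57.D300.F2, with -2.32 and -2.17.

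The highest ratios are also given for the genes of this list that passed the same minimum of 100 counts. For FVB.CTL.F1 relative to C57.CTL.F1, Cep135, a centriole protein, Ift88, an intraflagellar transport protein, and Dnal1, a dynein light chain, had the highest of these log2 ratios, 0.39, 0.37 and 0.36. Dnal1, Cfap44 and Ift88 were highest for C57.D300.F2 relative to C57.CTL.F1 (0.34, 0.26 and 0.11), and Cfap44, Dnal1 and Gas8 against C57.D300.F1 (0.32, 0.22 and 0.13). Sept4, Cep135 and Hook1 were highest for FVB.CTL.F1 relative to C57.D300.F2 (0.80, 0.71 and 0.53). Hook1, which acts at the manchette, had 1438, 1278, 929.6, 1340.0 and 1329 counts and was thus abundant in both strains. For DEHP against vehicle, Ak8, Zmynd10 and Cfap74 were highest in FVB/N (0.72, 0.70 and 0.40) and Cfap44, Vdac3 and Sept4 lowest (-0.33, -0.15 and -0.03). In C57BL/6J, Ccdc39 and Cfap69 were highest (0.30 and 0.21) and Spata3, Tcp11 and Gas8 lowest (-0.76, -0.60 and -0.60). The difference between both ratios was highest for Cetn1, Spata3 and Dnajb13 (1.26, 1.20 and 1.11) and lowest for Cfap44, Drc7 and Theg (-0.27, -0.26 and -0.13).

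The genes for nuclear condensation, made in the same spermatids, had the same order of levels as a group. Their 8 genes summed to 24465 counts for C57.CTL.F1, 16084 for C57.D300.F1, 8624 for C57.D300.F2, 2236 for FVB.CTL.F1 and 3074 for FVB.D300.F1. The protamine gene Prm2 made up most of this, with 20903, 12610.3, 6651, 1584 and 2019 counts. All 8 were lower by 1 log2 unit in FVB.CTL.F1 relative to C57.CTL.F1 (median -2.54) and relative to C57.D300.F2 (median -1.75). In C57.D300.F2, 5 were lower relative to C57.CTL.F1 (median -1.08) and 2 lower relative to C57.D300.F1 (median -0.91). For DEHP against vehicle, the medians were -0.12 in C57BL/6J, with none past the limit, and 0.46 in FVB/N, where H2afb1 was higher. RNA of haploid germ cells was thus present in all 5 conditions, in unequal shares.

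Markers of other cells also differed between the conditions, and their part in the results for the tail genes was not tested. The 14 liver genes summed to 3.98% of all counts for C57.CTL.F1, 3.80% for C57.D300.F1, 0.165% for C57.D300.F2, 0.0742% for FVB.CTL.F1 and 0.0556% for FVB.D300.F1, an order like that of the tail genes. All 14 were lower by 1 log2 unit in C57.D300.F2 relative to C57.CTL.F1 (median -5.46) and in FVB.CTL.F1 relative to C57.CTL.F1 (median -7.29). In each of these comparisons, 9 of the 14 differed by more than the model SD. The 10 seminal vesicle genes held 2.89% in C57.CTL.F1 and between 0.0149% and 0.0334% elsewhere. All 10 were lower by 1 log2 unit in C57.D300.F1 relative to C57.CTL.F1, where no tail gene was. Only 2 of the 10 differed there by more than the model SD, and 4 stood at 3 counts or fewer in C57.D300.F1. The epididymal genes with all values, 26 of 28, held 0.821%, 0.901%, 1.08%, 1.17% and 1.75% in the order of the conditions. Crisp1 was left out because its estimate failed in C57.D300.F1, C57.D300.F2 and FVB.CTL.F1. Its 108274 counts for C57.CTL.F1 and 219328 for FVB.D300.F1 exceeded the sums of the 26 genes, 70589 and 145102. Of the 26, 21 were higher in FVB.D300.F1 relative to FVB.CTL.F1, 16 differed by more than the model SD, and 6 stood at 3 counts or fewer in FVB.CTL.F1. The 14 leukocyte genes held 0.116%, 0.177%, 0.112%, 0.0554% and 0.0550%, and 7 were lower in FVB.CTL.F1 relative to C57.CTL.F1 (median -0.99).

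Cells with motile cilia share the axoneme with sperm, so their own markers were examined. The 10 multiciliated cell genes in the table summed to 628 counts for C57.CTL.F1, 542 for C57.D300.F1, 735 for C57.D300.F2, 1010.1 for FVB.CTL.F1 and 1187 for FVB.D300.F1, with 3, 3, 0, 2 and 2 of them at 3 counts or fewer and Sntn, a protein of the ciliary tip, listed at 0 for C57.CTL.F1. Their sum was thus higher in FVB/N, where the tail genes were lowest, and most of that came from the dynein heavy chain gene Dnah9, with 219, 176, 275, 555 and 559.6 counts. Of the 7 genes measured in FVB.CTL.F1 and C57.CTL.F1, 4 were above 0 and 3 below it on the log2 scale (median 0.38). The 3 were Dnah5, Dnah11 and Foxj1. Foxj1, the factor that switches on genes of motile cilia, had 28.5, 32.8, 20.8, 3.67 and 8.46 counts. The 14 genes of premeiotic and meiotic germ cells and somatic cells of the testis summed to 749, 812, 743, 565 and 666 counts in the order of the conditions. This sum joins genes that differed in opposite directions. Of the 9 measured in FVB.CTL.F1 and C57.CTL.F1, 6 were below 0 and 3 above it, from -3.66 (Ddx4) to 1.63 (Cyp17a1). The 37 tail genes summed to 90126, 81314, 31929, 8354 and 9523 counts in the same order. The 37 genes lie on 17 chromosomes, and 9 of them overlap another coding gene, none on the same strand. The authors mapped the reads by strand.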

How the data were processed

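RNA of cauda epididymal sperm was measured in 25 all-RNA-seq libraries (5 conditions with 5 libraries each). The authors clipped the adapter, kept reads of at least 18 bases, mapped them by strand to mm10 with TopHat and quantified genes with Cuffdiff. CASAVA 1.8.2 is named in the submitters' processing notes, and versions of the other tools are not given in the sources used here. The deposited values are a signal, 1 estimated fragment count per gene and condition, scaled between libraries and not divided by gene length. The deposited variance of each count comes from the authors' software model, and its square root was used as a model SD. It is not the spread between libraries, which was not analysed here. The totals per condition (6921688 to 8602900) bear on precision through counting error only.

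Failed estimates were treated as missing (71 genes in at least 1 condition, no tail gene). They were left out of the totals, also for the scaling to equal totals, so the totals do not cover the same genes. Log2 ratios used a pseudocount of 1 and genes with at least 10 counts in 1 compared condition, with a limit of 1 log2 unit. The floor was 3 counts. With 1 value per condition no test was run, so edgeR and DESeq2 were not used. All 37 genes were named, those past the limit and the 8 most abundant with all counts. Of the other tail genes, the 3 highest and 3 lowest ratios per comparison were named among those with at least 100 counts. The value of 1 such gene is not reported here. The genes and lists were chosen with earlier results of these data known. Spag6l, Prm2, H2afb1, Crisp1, Foxj1, Sntn, Dnah5, Dnah9, Dnah11, Ddx4, Cyp17a1 and the X-box half-site were chosen after values or sequences were seen. Positions are from GENCODE M21 on GRCm38, the build of the files (mm10), and kilobases are of merged exons. The computation of the ratios was tested on counts simulated with changes of 2 log2 units and Poisson noise only. That noise is smaller than the model SD of the tail genes, so the limit was not tested for these data. Alternatives were equal totals, median-of-ratios factors, upper quartile scaling, pseudocounts of 0.1 and 10, minimum counts of 100 or none, a limit of 2 log2 units, and totals without the 20 most abundant genes. Computations used pandas 2.3.3, numpy 2.4.6 and scipy 1.17.1 in Python 3.11.15, and figures matplotlib 3.10.9.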

Additional observations from a re-analysis of the deposited data

How the results depend on the processing

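Over the alternatives run for the medians, the counts of genes past the limit and the shares of counts, 168 values kept within their limits, 12 moved and none reversed in a called direction. For C57.D300.F2 relative to C57.CTL.F1, the median of the 37 genes was -0.66 with equal totals and -0.69 with upper quartile scaling, in place of -0.97. The number of lower genes in that comparison was 8 with either scaling and 0 at a limit of 2 log2 units, in place of 17. Of all 17114 genes, 1114 and 1163 were lower with these scalings and 617 at 2 log2 units. Against C57.D300.F1 the number of lower tail genes was 6 with either scaling and 0 at 2 log2 units, in place of 12. There 1101 and 1013 of all 17133 genes were lower with the scalings and 566 at 2 log2 units. For FVB.CTL.F1 relative to C57.CTL.F1, the median was -2.61 with a minimum of 100 counts, which leaves fewer genes. For FVB.CTL.F1 relative to C57.D300.F2, 10 genes were lower at 2 log2 units, in place of 30, and 424 of all 16969 genes. The median difference between both strains' DEHP ratios was 0.0651 with equal totals, in place of 0.34. Over all genes it was -0.25, in place of 0.03. The share of counts in FVB.D300.F1 was 0.140% without the 20 most abundant genes, in place of 0.115%. Of single genes past the limit, 423 values kept their side of it and 37 no longer passed it. The scalings also moved the median of all genes, with equal totals from -0.04 to 0.27 for C57.D300.F2 relative to C57.CTL.F1. There the higher genes made up 57.5% of all genes past the limit with equal totals and 54.4% with upper quartile scaling, against 28.8% as reported. No paired analysis was possible because each condition has 1 value per gene, and for the same reason no library could be left out.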

Other observations

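The makeup of the tail RNA differed between the conditions along with its amount. Smcp made up 39.0% of the counts of the 37 genes for C57.CTL.F1, 38.2% for C57.D300.F1, 31.6% for C57.D300.F2, 21.5% for FVB.CTL.F1 and 18.7% for FVB.D300.F1. Odf1 held the leading place in FVB/N, with 31.0% and 30.9% of the tail counts. The ranges of Smcp and Odf1, each the count plus or minus its own model SD, overlapped in every condition. Their difference was not set against the model SD of a difference. The neighbouring kinase genes Tssk1 and Tssk2 on chromosome 16 differed in their strain ratios, with log2 values of -1.96 and -3.94 for FVB.CTL.F1 relative to C57.CTL.F1. The annotation gives 1 exon for Fscb, Tssk1, Tssk2 and Tssk6, so that reads of DNA and of RNA cannot be told apart by splicing for these 4 genes. Among the spoke head genes, Rsph1 and Rsph9 also stood apart, with -1.87 and -0.19 in the same comparison.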
